A study of Mus musculus with 24 samples.

Results

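*Arvcf*, *Aif1l*, *Plce1* and *Cnn3* are 4 mouse genes, of 51912 in the deposited table and 16454 tested, that were grouped because their RNA was lower in the E13.5 archicortex of mutants made with either of 2 Cre lines that delete *Sox9*, and because none of them lies on chromosome 11, where *Sox9* is. The E13.5 values therefore chose the genes and are given below as a description without a test. The E12.5 libraries were not used by the choice and carry the tests of mutants against controls. The relations within groups use all 24 libraries, with group means taken out.

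SOX9 is a transcription factor of the SOXE group, known in the developing brain as a regulator of neural stem cells and of gliogenesis. The archicortex is the medial wall of the dorsal telencephalon, which holds the cortical hem, a signaling center, and the dentate neuroepithelium, which gives rise to the dentate gyrus of the hippocampus. The products of the 4 genes act close to the cell surface. ARVCF is a catenin of the p120 family that binds the cytoplasmic tail of cadherins at adherens junctions. AIF1L is an actin-binding protein with EF hands, and CNN3 is the acidic calponin, which binds actin filaments. PLCE1 is phospholipase C epsilon, which cleaves a membrane phosphoinositide into second messengers and is itself bound by RAS and RAP GTPases.

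RNA from dissected archicortex of mixed C57BL/6J;MF1 mice was sequenced in 24 libraries, 4 in each of 6 groups. At E12.5 there were *Sox9fl/fl;Sox1Cre* mutants (A9 to A12) and *Sox9+/+;Sox1Cre* controls (A13 to A16). At E13.5 there were mutants (A1 to A4) and controls (A5 to A8) of the same genotypes, and *Sox9fl/fl;NestinCre* mutants (A17 to A20) with *Sox9+/+;NestinCre* controls (A21 to A24). Mutants and controls all carried a Cre, so the intended difference was the floxed *Sox9* alleles, with any DNA inherited with them. On this mixed background other DNA may have differed too, and the groups also differed in sex, as given below. The lines differ in extent: *NestinCre* mutants are a partial deletion, because recombination in the archicortex is recent at E13.5 and largely spares the hem, while *Sox1Cre* recombination is early and covers all of the archicortex. The labels do not say whether libraries of a group came from separate litters or pooled embryos, so p-values measure the spread between these libraries. Whole archicortex also holds cells in which neither Cre is active, and in such bulk RNA fewer cells of a type and less RNA per cell cannot be told apart.

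Values are normalized counts per library, that is, reads assigned to a gene divided by a size factor for the library. The libraries held between 16163560 and 49445219 reads on genes. At E12.5 the mutants were more deeply sequenced (median 27811999 reads) than the controls (median 18540568). The least expressed of the 4 genes, *Plce1*, had at least 320.3 normalized counts in every library, far above the value of 3 reads, which was at most 4.38 in any library.

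The genes lie on different chromosomes, all on the plus strand of GRCm38. *Arvcf* (ENSMUSG00000000325) is at chr16:18348182-18407076, *Aif1l* (ENSMUSG00000001864) at chr2:31950139-31973442, *Plce1* (ENSMUSG00000024998) at chr19:38481109-38785030 and *Cnn3* (ENSMUSG00000053931) at chr3:121426497-121458207. *Sox9* (ENSMUSG00000000567) is at chr11:112782224-112787760. All 4 are protein-coding. The 250 bases before each RefSeq start site (GRCm38.p6) were searched on both strands for the letters that SOX proteins are known to prefer, since these genes were chosen by loss of a SOX factor. A 7-letter motif (CAA with 2 letters before it that are each A or T, and AG or TG after it) was present in 21.8% of all 32841 promoter windows, and a 6-letter core (ACAAAG or ACAATG, which overlaps the motif wherever the letter before CAA is an A) in 25.2%. *Arvcf* has 3 RefSeq starts and each other gene has 1, which makes 6 windows, of which 2 held the 7-letter motif and 2 the core. The window at chr16:18380533-18380782 before an internal start of *Arvcf* is shown because it was the one of the 3 with a match. It held 1 match of the 7-letter motif and 4 of the core, in capitals, of which the last 2 are reverse complements of each other with 6 bases between them:

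Arvcf: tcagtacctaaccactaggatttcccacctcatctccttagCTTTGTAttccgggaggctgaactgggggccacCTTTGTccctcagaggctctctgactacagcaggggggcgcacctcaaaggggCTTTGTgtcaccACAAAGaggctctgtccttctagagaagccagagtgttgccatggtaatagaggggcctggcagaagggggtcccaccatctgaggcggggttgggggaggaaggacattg

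The only match of *Aif1l*, 139 bases before its start (chr2:31950153-31950182), and that of *Plce1*, 34 bases before its start (chr19:38524151-38524180), lie inside annotated exons of these genes. They are shown with the matched letters in capitals and the bases on either side:

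Aif1l: taaacagcgggCTTTGATgccccgggtgcg

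Plce1: agcttgcttcgcACAAAGactggaattatc

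The window of *Cnn3* held no match. It is shown up to the first annotated exon (chr3:121426291-121426496), without capitals, because it was the richest of the 6 in G and C (78.8% of the whole window, above 98.3% of all windows):

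Cnn3: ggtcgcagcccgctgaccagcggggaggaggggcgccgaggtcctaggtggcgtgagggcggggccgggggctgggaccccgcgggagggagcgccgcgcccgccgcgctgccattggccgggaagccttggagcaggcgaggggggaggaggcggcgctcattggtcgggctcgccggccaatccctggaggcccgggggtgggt

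The window of *Plce1* was at the other end, with 38.8% G and C against a median of 52.4% over all windows. A match describes these letters and is not a measured binding site, and the gene-level counts do not separate the starts of *Arvcf*.

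In expression per length the 4 genes were far apart. Averaged over the 24 libraries, *Cnn3* had 3643 normalized counts per kilobase of exon, above 98.4% of the genes tested, *Arvcf* had 521 and *Aif1l* had 469. *Plce1* had 48.2, lower than most genes tested (34.9th percentile), and *Sox9* had 968. The spread between libraries of a group was as different. The residual SD of log2(value + 1) was 0.05 for *Cnn3*, smaller than for all but 0.808% of genes, 0.09 for *Arvcf*, 0.16 for *Aif1l* and 0.32 for *Plce1*.

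A few libraries stood apart in other cell types. Library A1, an E13.5 *Sox1Cre* mutant, had the lowest summed value of the 24 libraries for the choroid plexus list (8823 normalized counts, against 71113 to 95317 in A2 to A4), the endothelium and pericyte list (7009), the meninges list (26591) and the cortical hem list (18503). Library A10, an E12.5 *Sox1Cre* mutant, had 8097 for endothelium and pericytes, where the other libraries of its group had 14871 or more. Library A19, an E13.5 *NestinCre* mutant, had 9714 for endothelium and pericytes and 39962 for meninges, where the others of its group had at least 13687 and 51895. Library A18, of the same group as A19, had the highest ventral telencephalic sum of the 24 libraries (2871), where the others of its group had at most 1438. Its astrocytic progenitor sum was 17923, where the others of its group had at least 24279. Changes of the 4 genes are given with and without these libraries, as are those list results that A1, A10 and A19 moved most, a choice made after seeing the data. Libraries also differed in sex: *Xist* exceeded 1000 normalized counts in 4 of 4 controls and 2 of 4 mutants at E12.5, in 0 of 4 and 2 of 4 at E13.5 in the *Sox1Cre* line, and in 1 of 4 and 2 of 4 in the *NestinCre* line.

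*Sox9* itself was lower in every mutant library. At E12.5 it was 4391, 5265, 4237 and 4194 normalized counts in controls A13 to A16 and 2785, 1733, 2593 and 1928 in mutants A9 to A12, a log2 change of -1.02 (SE 0.12, adjusted *p* = 6.28e-05, limma with Benjamini-Hochberg adjustment). At E13.5 it ranged from 5218 to 5911 in controls and 2828 to 3677 in mutants of the *Sox1Cre* line, and from 4586 to 5636 in controls and 2997 to 3369 in mutants of the *NestinCre* line. The log2 changes were -0.74 and -0.71 (SE 0.12 in each), so the difference in extent between the lines was not seen in these counts. The counts are over the whole gene, so RNA from exons outside the floxed part would be counted too, and the share of such RNA was not tested.

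**Figure D1:**
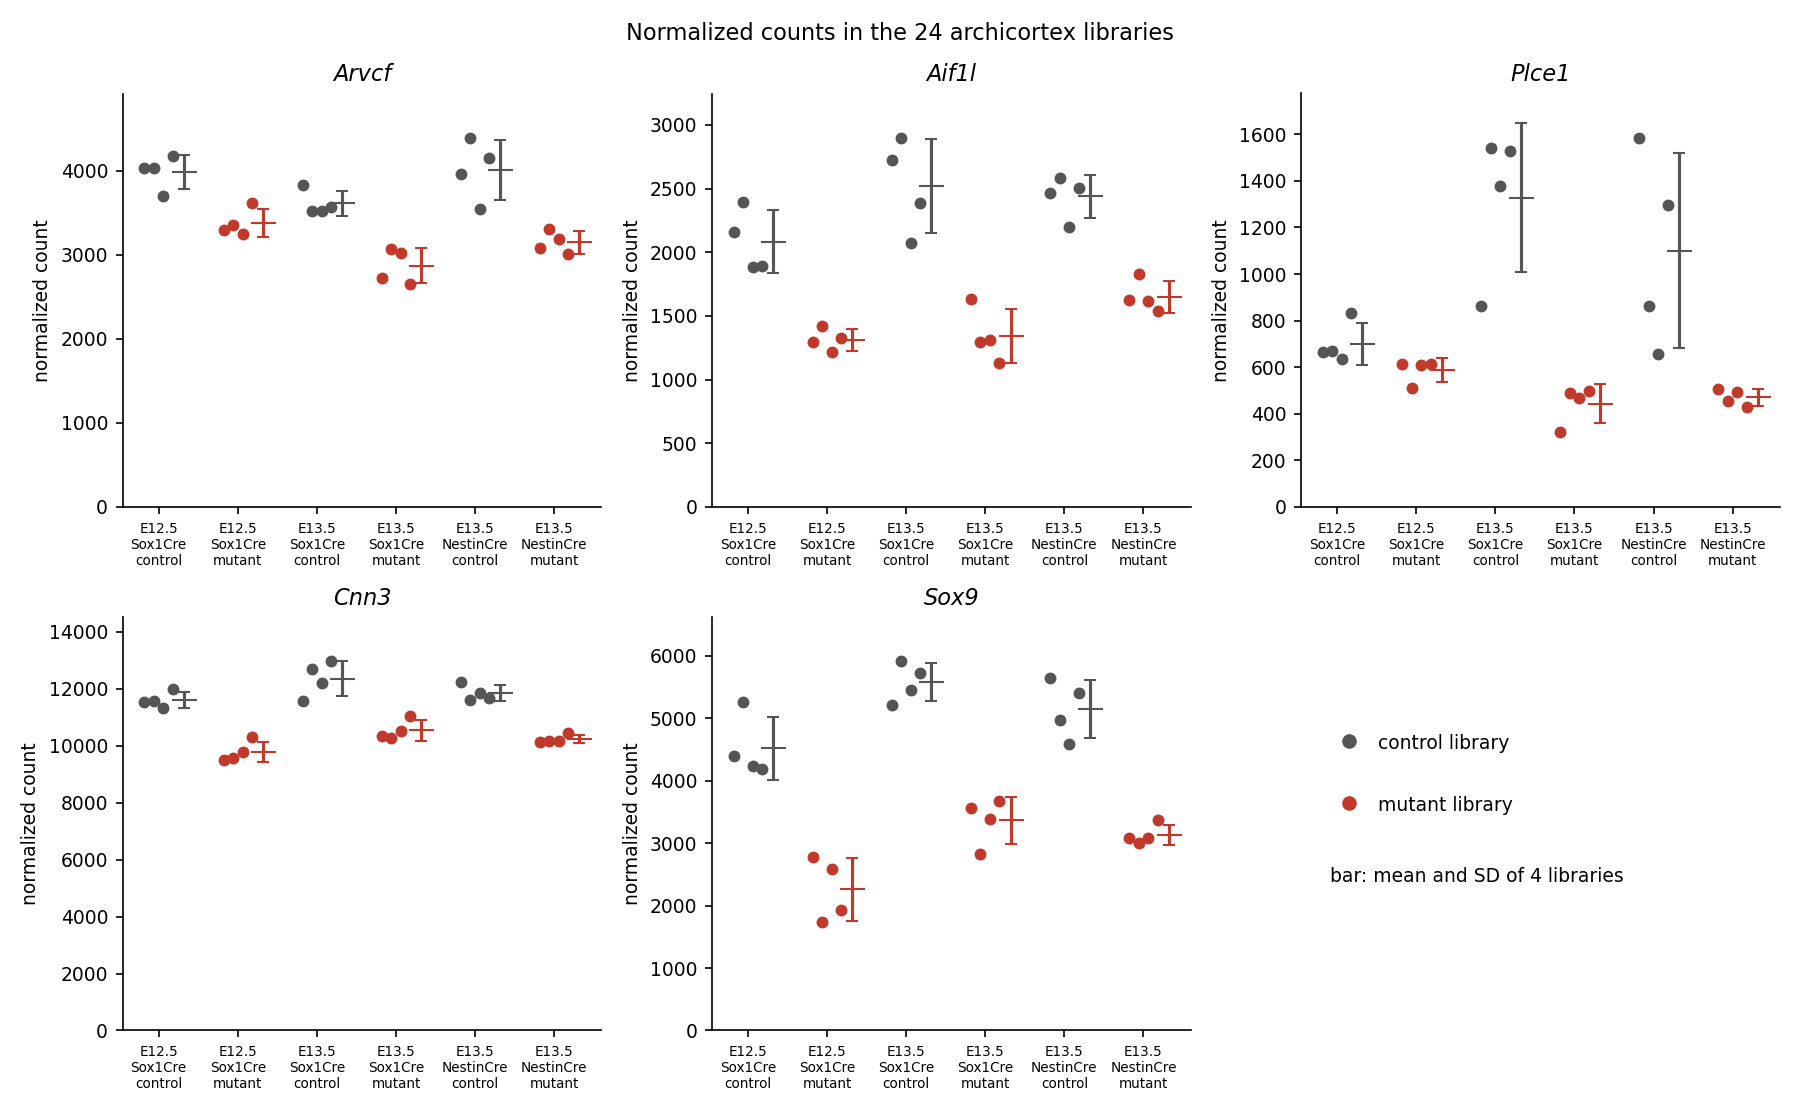
Normalized counts of *Arvcf*, *Aif1l*, *Plce1*, *Cnn3* and *Sox9* (vertical axes from 0) in the 24 libraries, by group. Each point is a library, and the bar beside it gives the mean and SD of 4 libraries; mutants (red) lie below their own controls (gray) in every panel, and the E13.5 controls of *Plce1* are the most scattered, from 658.7 to 1585.

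At E12.5, the comparison that did not choose the genes, *Aif1l* and *Cnn3* were lower in *Sox9fl/fl;Sox1Cre* mutants, and *Arvcf* and *Plce1* did not pass the test across all genes. Of the 4 genes, 2 passed the adjusted threshold of 0.05, where 0.723% of all genes tested did (119 genes, 0.541% lower in mutants). In all 4 genes the mutants lay below all controls, which was true of 5.93% of genes tested.

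The actin-binding *Aif1l* had the largest decrease of the 4 at this age. It was 2158, 2398, 1885 and 1889 normalized counts in controls A13 to A16 and 1294, 1423, 1214 and 1323 in mutants A9 to A12. The lowest control stood well above the highest mutant, and the controls were the more spread of the groups. The log2 change was -0.66 (SE 0.11, 95% interval -0.88 to -0.44), so that mutants had 63.3% of the control level (adjusted *p* = 0.00286, limma).

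*Cnn3*, the calponin and the most abundant of the 4, fell by less but with little spread. Controls A13 to A16 had 11557, 11589, 11317 and 12002 normalized counts, and mutants A9 to A12 had 9510, 9562, 9768 and 10292. All mutants were below all controls, and the gap between the groups was wider than the range within either. The log2 change was -0.25 (SE 0.04, 95% interval -0.33 to -0.17), which left 84.2% of the control level (adjusted *p* = 0.0018, limma). This call depended on the scaling: after quantile normalization the log2 change was -0.19 with an adjusted *p* of 0.0935.

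The catenin *Arvcf* was 4035, 4035, 3701 and 4179 normalized counts in controls A13 to A16 and 3296, 3351, 3240 and 3612 in mutants A9 to A12. The highest mutant, A12, was only just below the lowest control, A15. The log2 change was -0.24 (SE 0.06, 95% interval -0.37 to -0.11), with 84.7% of the control level, and it missed the threshold (adjusted *p* = 0.0725, limma). The call was made with array weights (adjusted *p* = 0.0153) and by DESeq2 (adjusted *p* = 0.0173), and was not made by edgeR (adjusted *p* = 0.0826).

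*Plce1*, the phospholipase, was 663.9, 668.6, 634.1 and 831.3 normalized counts in controls and 615.3, 509.3, 608.7 and 611.8 in mutants, in the same order. The groups did not overlap, but 3 controls and 3 mutants lay within a narrow band, from 608.7 to 668.6. The log2 change was -0.25 (SE 0.21, 95% interval -0.70 to 0.20, adjusted *p* = 0.644, limma), so at this age the interval covered both a decrease to 61.7% and an increase to 115% of the control level.

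In exact permutation tests over the 35 splits of the 8 E12.5 libraries, each of the 4 genes had a two-sided *p* of 0.0286, the smallest that 4 libraries against 4 can give. Because the limma model estimates each gene's spread over all 24 libraries, it drew on E13.5 libraries that the choice of genes had used. With the 8 E12.5 libraries alone, the adjusted *p* (limma) was 0.015 for *Aif1l*, 0.0383 for *Cnn3*, 0.0779 for *Arvcf* and 0.234 for *Plce1*. By unadjusted *p* in the full model, *Cnn3* ranked 18th, *Aif1l* 24th, *Arvcf* 174th and *Plce1* 6533rd of 16454 genes.

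All 4 E12.5 controls but only 2 mutants were above the *Xist* limit. Among libraries above it, mutants had a mean of 1318 normalized counts of *Aif1l* (range 1214 to 1423) and 9665 of *Cnn3* (9562 to 9768), below every control. With only these libraries from E12.5, the log2 change was -0.66 for *Aif1l* (adjusted *p* = 0.0466, limma) and -0.27 for *Cnn3* (adjusted *p* = 0.0114), a check chosen after seeing the data. Without library A10, the log2 changes were -0.70 for *Aif1l* (adjusted *p* = 0.00452), -0.24 for *Cnn3* (0.00696), -0.24 for *Arvcf* (0.132) and -0.18 for *Plce1* (0.767).

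**Figure D2:**
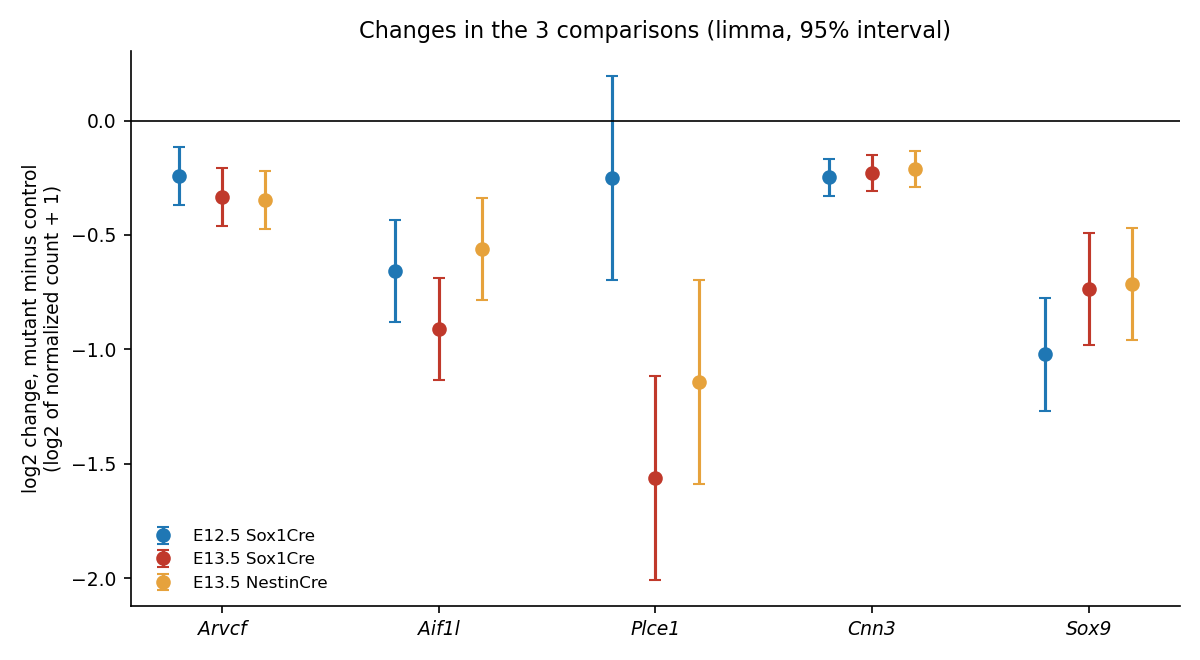
Log2 change (mutant minus control, log2 of normalized count + 1) of the 4 genes and *Sox9* in the 3 comparisons; points are limma estimates from 4 against 4 libraries and bars are 95% intervals. The E13.5 values of the 4 genes chose them and are shown as a description; at E12.5 the interval of *Plce1* (-0.70 to 0.20) includes 0 and the other intervals do not.

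At E13.5 in the *Sox1Cre* line, 0.924% of genes tested passed the threshold (0.559% lower in mutants) and 2.6% had all mutants below all controls. All 4 genes did both, but their E13.5 calls and direction in both lines chose them, so nothing is read from this. *Plce1* had the largest change. It was 861.8, 1543, 1379 and 1530 normalized counts in controls A5 to A8 and 320.3, 491.3, 466.2 and 496.3 in mutants A1 to A4, a log2 change of -1.56 (SE 0.21). Control A5 stood apart below the other controls, and mutant A1 below the other mutants.

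*Aif1l* was 2722, 2899, 2070 and 2390 normalized counts in controls A5 to A8 and 1635, 1292, 1314 and 1130 in mutants A1 to A4, a log2 change of -0.91 (SE 0.11). Library A1, the lowest for *Plce1*, was the highest mutant for *Aif1l*. *Arvcf* was 3832, 3523, 3519 and 3561 in controls and 2722, 3064, 3024 and 2656 in mutants, a change of -0.33 (SE 0.06). *Cnn3* was 11591, 12685, 12196 and 12969 in controls and 10337, 10269, 10505 and 11052 in mutants, a change of -0.23 (SE 0.04). Mutants thus had 33.8% of the control level for *Plce1*, 53.3% for *Aif1l*, 79.3% for *Arvcf* and 85.3% for *Cnn3*. Without library A1 the log2 changes were -1.42, -1.01, -0.31 and -0.22 in the same order.

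At E13.5 in the *NestinCre* line few genes passed the threshold, 11 in all or 0.0669% (0.0547% lower in mutants), and 2.8% of genes had all mutants below all controls. The 4 genes are among the 11 because of how they were chosen. *Plce1* was 1585, 862.5, 658.7 and 1296 normalized counts in controls A21 to A24 and 507.0, 453.0, 492.8 and 430.1 in mutants A17 to A20, a log2 change of -1.14 (SE 0.21). Its controls spanned a 2.41-fold range, with a coefficient of variation of 38.0%, whereas its mutants spanned a 1.18-fold range. *Aif1l* was 2463, 2584, 2197 and 2508 in controls and 1621, 1827, 1614 and 1538 in mutants, a change of -0.56 (SE 0.11).

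*Arvcf* was 3955, 4390, 3546 and 4154 normalized counts in controls A21 to A24 and 3082, 3307, 3189 and 3004 in mutants A17 to A20, a log2 change of -0.35 (SE 0.06). *Cnn3* was 12251, 11610, 11867 and 11682 in controls and 10132, 10185, 10164 and 10437 in mutants, a change of -0.21 (SE 0.04). Control A23 was the lowest of its group for *Arvcf*, *Aif1l* and *Plce1* but not for *Cnn3*, and it was the only control of this line above the *Xist* limit.

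The *NestinCre* calls that defined these genes stood close to the threshold, with adjusted *p* values of 0.0394 for *Arvcf* and *Cnn3*, 0.0445 for *Plce1* and 0.0496 for *Aif1l* (limma), given as a description. When each of the 8 libraries was left out in turn, the call was kept once for *Arvcf*, once for *Plce1* and never for *Aif1l* or *Cnn3*, while the log2 changes stayed between -0.40 and -0.30, -1.36 and -0.94, -0.61 and -0.53, and -0.22 and -0.20 respectively. In the *Sox1Cre* line all 4 calls were kept in each of the 8 such fits. Under the other settings, *Arvcf*, *Aif1l*, *Plce1* and *Cnn3* kept the *NestinCre* call in 8, 4, 6 and 7 of 12. In the *Sox1Cre* line they kept it in 12, 13, 13 and 10 of 13. The calls lost there were those of *Arvcf* (adjusted *p* = 0.113) and *Cnn3* (0.262) with the comparison's 8 libraries alone, and of *Cnn3* after quantile normalization (0.155) and with 1 *Xist* class (0.0565; limma).

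Just outside the threshold in the *NestinCre* line, among genes past it in the *Sox1Cre* line at E13.5 with a mean of at least 100, were *Nsdhl* (adjusted *p* = 0.0651), *Slc27a1* (0.167) and *Epb41l3* (0.212; limma), which encode a sterol dehydrogenase of cholesterol synthesis, a fatty acid transport protein and a band 4.1 protein that links membrane proteins to the actin cortex. Their log2 changes there were -0.34, -0.76 and -0.25. At E12.5, *Nsdhl* (-0.44, adjusted *p* = 0.00164) and *Epb41l3* (-0.30, adjusted *p* = 0.0143) were lower in mutants and *Slc27a1* did not pass (-0.62, adjusted *p* = 0.0815). Besides the 4, the genes past the threshold in both E13.5 comparisons were *Sox9* itself, *Mettl23* and 4933434M16Rik. The last 2 lie on chromosome 11 with *Sox9*, and at E12.5 *Mettl23* was lower (-1.43) and 4933434M16Rik, with 0 reads in each E12.5 control, was higher in mutants.

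Across the 6 groups each gene had its own order of levels. For *Plce1* the group means were 1328 normalized counts (SD 319.8) in E13.5 *Sox1Cre* controls, 1101 (SD 418.2) in *NestinCre* controls and 699.5 (SD 89.2) in E12.5 controls, followed by 586.3 (SD 51.4) in E12.5 mutants, 470.7 (SD 35.4) in *NestinCre* mutants and 443.5 (SD 83.2) in E13.5 *Sox1Cre* mutants. The controls of the *NestinCre* line overlapped both other control groups, and the mutant groups of E13.5 overlapped each other. Control means were higher at E13.5 than at E12.5. All 8 mutants at E13.5 were below all 4 mutants at E12.5, but the margin was very narrow. The highest E13.5 mutant had 507.0 (A17) and the lowest E12.5 mutant had 509.3 (A10), which stood apart below its group. Because E13.5 values chose the gene, nothing is read from this order. The E12.5 and E13.5 libraries were not compared by a test.

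For *Aif1l* the control means were 2520 (SD 366.9), 2438 (SD 168.5) and 2083 (SD 246.2) normalized counts and overlapped one another, in the order E13.5 *Sox1Cre*, *NestinCre*, E12.5. The mutant means were 1650 (SD 124.1) in the *NestinCre* line, 1343 (SD 211.3) at E13.5 in the *Sox1Cre* line and 1313 (SD 86.2) at E12.5, of which the last 2 were closer than their spread. *Cnn3* control means ran from 11616 (SD 284.4) to 12360 (SD 604.2) and mutant means from 9783 (SD 357.2) to 10541 (SD 355.3), with the E12.5 group lowest in each set. *Arvcf* was highest in *NestinCre* controls (4011, SD 357.3) and E12.5 controls (3987, SD 202.9), lower in E13.5 *Sox1Cre* controls (3609, SD 150.1), and lowest in E13.5 *Sox1Cre* mutants (2866, SD 207.5).

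For *Aif1l*, *Plce1* and *Cnn3*, all 12 mutant libraries lay below all 12 control libraries regardless of age and Cre line, as they did for *Sox9*. This was so for 11 of the genes tested, again 0.0669%, and since E13.5 values chose the genes nothing is read from it. The margin was narrow for *Plce1*, with a highest mutant of 615.3 and a lowest control of 634.1. For *Arvcf* the highest mutant (3612, at E12.5) was above 4 of the 12 controls, all of them at E13.5.

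Within groups, no relation of the 4 genes to *Sox9* or to one another passed the test. After group means were taken out, *Sox9* had a Pearson r of -0.27 with *Arvcf*, 0.0388 with *Aif1l*, 0.30 with *Plce1* and 0.15 with *Cnn3* over the 24 libraries. Spearman's rho was -0.43, 0.05, 0.29 and 0.22, and the permutation p-values for r, drawn within groups, were 0.234, 0.852, 0.103 and 0.601. Without A9 and A10, the libraries farthest from the median of *Sox9*, r was -0.32, 0.18, 0.27 and 0.22. Among the 6 pairs of the 4 genes, the highest r was 0.54 for *Plce1* and *Cnn3* (permutation *p* = 0.0175, rho = 0.42 with permutation *p* = 0.0638), and 0.50 without A5 and A23. The 10 relations were adjusted together, and none passed, with adjusted *p* = 0.175 for *Plce1* and *Cnn3* and 0.458 or more for the others.

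**Figure D3:**
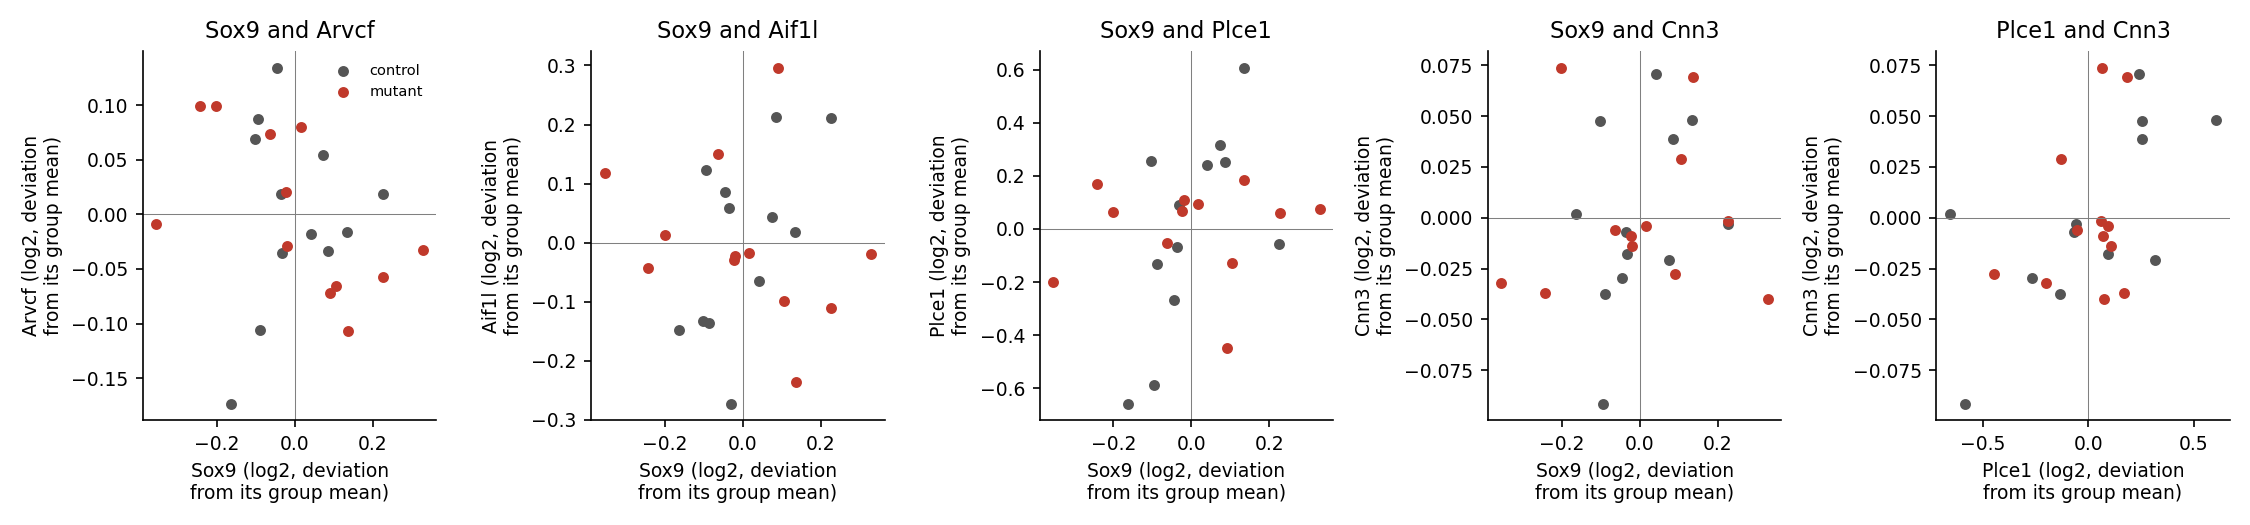
Deviations of log2(normalized count + 1) from the group mean in the 24 libraries, for *Sox9* (horizontal axes) against each of the 4 genes and for *Plce1* against *Cnn3*; gray points are controls and red points are mutants. The points of the *Sox9* panels are scattered (r from -0.27 to 0.30), and those of *Plce1* and *Cnn3* lean the same way (r = 0.54, not past the adjusted test), with 2 controls at the far left.

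The genes most like each of the 4 in level over the 24 libraries came from 11829 genes with a mean of at least 100. They are given as a description, because groups and size factors are shared by all genes. Group means were left in, so r also carries the E13.5 differences that chose the 4 genes, and nothing is read from it. The level of *Cnn3* was most like that of *Sox9* itself (r = 0.90), followed by *Slc27a1* (0.87), *Prelp* (0.87), *Mettl23* (0.87) and *Mxra7* (0.86). *Aif1l* was most like *Mmp17* (0.92), *Litaf* (0.92), the receptor gene *Notch1* (0.87), *Kcnd2* (0.85) and *Sox6* (0.84). *Plce1* was most like *Notch1* (0.88), *Slc27a1* (0.88), *Tacc1* (0.86), *Pgpep1* (0.85) and *Cnn3* (0.80). *Arvcf* was most like *Ints4* (0.82), *Jph1* (0.79), *Dtnbp1* (0.79), *Tmod3* (0.79) and *Pgpep1* (0.78). In its order *Aif1l* was 18th (0.73), *Plce1* 92nd (0.64), *Cnn3* 242nd (0.57) and *Sox9* 593rd (0.49).

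Among the close relatives of the 4 genes, 2 passed the test, in 1 comparison each. Of the p120 catenins related to *Arvcf*, *Ctnnd1*, which encodes p120 catenin and had 991.3 normalized counts per kilobase against 521 for *Arvcf*, was lower at E13.5 in *Sox1Cre* mutants (-0.17, adjusted *p* = 0.0388) and not past the threshold at E12.5 (-0.10, adjusted *p* = 0.266) or in the *NestinCre* line (0.05, adjusted *p* = 0.952). *Pkp4* was lower at E12.5 (-0.28, adjusted *p* = 0.00864) and did not pass at E13.5 in either line (-0.09 and -0.03). *Ctnnd2* passed in no comparison, with changes of 0.10, 0.22 and 0.30 at E12.5, at E13.5 in the *Sox1Cre* line and in the *NestinCre* line. All values are from limma with adjustment over all genes.

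*Cnn2*, the neutral calponin, had changes of 0.19, -0.21 and -0.02 in the same order, and *Cnn1*, the calponin of smooth muscle, had a mean of 1.22 normalized counts and was not tested. *Aif1*, the microglial relative of *Aif1l*, was sparse (mean 27.6) and did not pass, with changes of 0.13, -0.65 and -0.27. The phospholipases *Plcb1*, *Plcb4* and *Plcg1* passed in no comparison. *Plcb1*, which had a mean over all libraries close to that of *Plce1* (782.5 and 771.5), had changes of -0.20, 0.37 and 0.04 (SE 0.31 in each).

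Other genes of the same processes were counted from 4 lists of 120 tested genes in all, which excluded the 4 genes. At E12.5, 1 of 120 was lower in mutants and none higher, against 0.541% and 0.182% of all genes, and at E13.5 in the *Sox1Cre* line it was again 1 lower and none higher, against 0.559% and 0.365%. These were *Pkp4* and *Ctnnd1*, both of the cadherin and catenin list of 29 genes, whose median log2 change was 0.02 at E12.5 and -0.04 at E13.5, against 0.00 over all genes in both. None of the 34 genes of actin binding and contraction, 32 of phospholipase C signaling and 25 of RAS and RAP signaling passed in these comparisons, with medians from -0.02 to 0.06. In the *NestinCre* line none of the 120 passed, against 0.0547% lower and 0.0122% higher. An unadjusted *p* under 0.05 was reached by 10, 12 and 6 of the 120 in the 3 comparisons, and by 2217, 1932 and 1064 of all 16454 genes tested. edgeR called the same numbers as limma, and DESeq2 called 2, 2 and 0, adding *Hras* (0.20, adjusted *p* = 0.0279) at E12.5 and *Myh14* (-1.34, adjusted *p* = 0.043) at E13.5. Without A10 at E12.5 the limma calls in these lists were again *Pkp4*, and without A1 at E13.5 they were *Ctnnd1* and *Plcd3*, a phospholipase C (0.88, adjusted *p* = 0.0255).

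Genes beside the 4 on their chromosomes were also counted. Within 500 kb, 27 tested genes lay near *Arvcf*, 22 near *Aif1l*, 10 near *Plce1* and 8 near *Cnn3*, and 0 of these 67 passed the threshold in any of the 3 comparisons (limma). At an unadjusted *p* under 0.05 there were 7, 9 and 4 of them (2217, 1932 and 1064 of all 16454 genes), edgeR called none, and DESeq2 called 1, *Dgcr2* near *Arvcf* at E13.5 in the *Sox1Cre* line (-0.11, adjusted *p* = 0.00809). The median change of neighbors was between -0.19 and 0.02 for each gene and comparison. The highest was that of *Rbp4*, near *Plce1* (2.08 at E13.5 in the *Sox1Cre* line, adjusted *p* = 0.456), which had a mean of only 22.8 normalized counts.

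**Figure D4:**
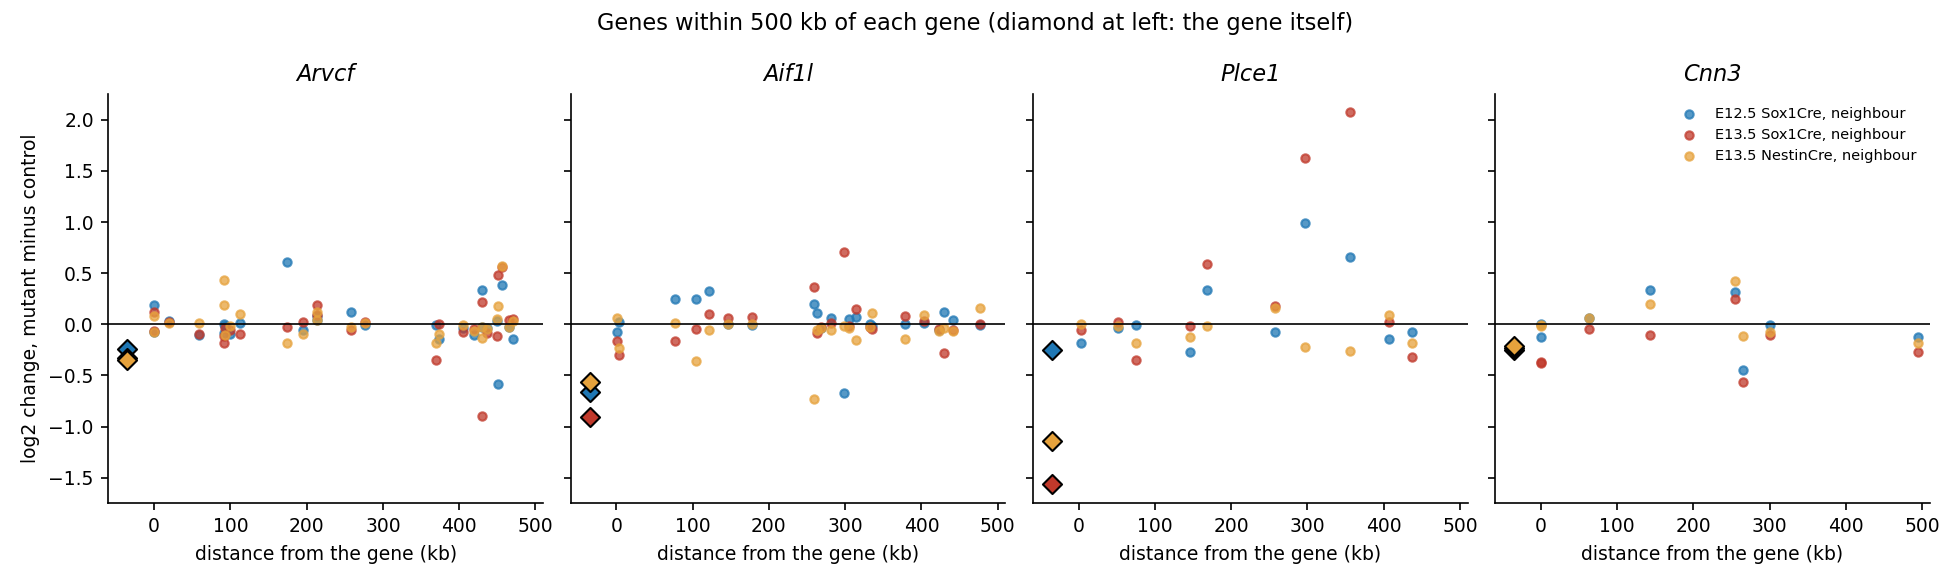
Log2 change (mutant minus control) of tested genes within 500 kb of each of the 4 genes, by distance in kilobases from the edge of the gene; colors give the comparison, and the diamond at the left of each panel is the gene itself. Most neighbors lie near 0, the 2 highest points are thinly expressed genes near *Plce1*, and none of the 67 passed the threshold.

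Some genes share exon bases with *Cnn3* and *Aif1l*, and the strand setting of the counting was not stated, so reads from opposite strands may not be separated there. *Cnn3* shares 538 exon bases with Gm42928, whose mean of 83.7 normalized counts is small beside that of *Cnn3* (11064), and *Aif1l* shares 168 with Gm13442, whose mean was 0.353. *Plce1* shares none with a gene in the table.

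The marker lists gave the makeup of the tissue. Of 10 genes that define the archicortex, all were tested and none passed in any comparison, with *Lhx2*, a selector gene of the cortex, the most abundant (14932 normalized counts in E12.5 controls). At E12.5, 8 of the 10 were below 0 (median log2 change -0.19), and all 15 tested genes of the cortical hem list were above 0 (median 0.22), again with none past the threshold (limma). The summed hem list was 42350 to 67069 normalized counts in E12.5 controls and 57419 to 81556 in mutants, with *Wnt8b* the most abundant and no gene at 0. An unadjusted *p* under 0.05 was reached at E12.5 by 4 of 10 archicortex genes and 0 of 15 hem genes (limma). Over all 16454 genes tested, 2217 reached it at this age. Neither edgeR nor DESeq2 called any gene of these 2 lists. At E13.5 in the *Sox1Cre* line, where the 4 genes were also lower, 7 of 10 archicortex genes were above 0 (median 0.09) and 12 of 15 hem genes below 0 (median -0.10), and the hem values turned on library A1. Without it 15 of 15 hem genes were above 0 (median 0.19), as at E12.5, and 6 of 10 archicortex genes (median 0.07), although the mean summed archicortex list was then lower in mutants (46314 normalized counts, SD 3908, n = 3) than in controls (47545, SD 2199, n = 4). Without A10 at E12.5, 15 of 15 hem genes were above 0 and 7 of 10 archicortex genes below it (medians 0.23 and -0.17). In the *NestinCre* line 8 of 10 and 9 of 15 were above 0 (medians 0.10 and 0.02). Their part in the levels of the 4 genes was not tested.

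Genes of radial glia, the progenitors in which *Sox9* is expressed, included several that fell. At E12.5, *Hopx* (-0.63, adjusted *p* = 0.0406) and *Notch1* (-0.45, adjusted *p* = 0.0417) were lower among 20 tested, and at E13.5 in the *Sox1Cre* line *Vim* (-0.26, adjusted *p* = 0.0289), *Hopx* (-0.60, adjusted *p* = 0.0451) and *Notch1* (-0.82, adjusted *p* = 2e-04, limma). Over all genes tested, 0.541% at E12.5 and 0.559% at E13.5 in this line were called lower. The list's median was -0.06, -0.04 and -0.05 in the 3 comparisons, and its summed value was 128965 to 130886 in controls and 112071 to 126306 in mutants at E12.5. The sums overlapped at E13.5, with 136396 to 164161 in controls and 133619 to 163020 in mutants of the *Sox1Cre* line, and 136507 to 154301 and 136738 to 157225 in the *NestinCre* line. Of 12 genes of astrocytic progenitors, *Kcnj10* was lower at E12.5 (-1.98, adjusted *p* = 0.0417), where edgeR called 0 and DESeq2 3 of the 12, and *Kcnj10* and *Slc27a1* were among those lower at E13.5 in the *Sox1Cre* line (-2.16 and -1.17, adjusted *p* = 0.0198 and 0.000512). Without library A10 none of the radial glial or astrocytic genes passed at E12.5, where 4 of 20 and 5 of 12 had an unadjusted *p* under 0.05. Without A1 at E13.5, *Vim*, *Hopx*, *Notch1*, *Kcnj10* and *Slc27a1* kept their calls. None of either list passed in the *NestinCre* line with limma or edgeR, where DESeq2 called 1 and 2. There 2 and 3 had an unadjusted *p* under 0.05, against 6.47% of all genes tested (limma). Whether fewer radial glia account for the lower levels of the 4 genes was not tested.

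Among the other cell types, none of the 15 neuronal genes passed, and of 12 genes of intermediate progenitors only *Neurod4* did, which was higher at E12.5 with limma (1.71, adjusted *p* = 0.0417) and DESeq2 but was not called by edgeR, nor by limma without A10. At E13.5 in the *Sox1Cre* line DESeq2 alone called *Neurod4* (1.32, adjusted *p* = 0.02). Neuronal genes were above 0 for 7 of 15 at E12.5 (median -0.07), 12 of 15 at E13.5 in the *Sox1Cre* line (median 0.17, or 9 of 15 and 0.03 without A1) and 10 of 15 in the *NestinCre* line (median 0.13). The median of the choroid plexus list (10 genes, most abundant *Ttr*) was 0.46 at E12.5, 0.10 at E13.5 in the *Sox1Cre* line and -0.15 in the *NestinCre* line. Genes of the meninges were below 0 for 13 of 13 in the *Sox1Cre* line and 11 of 13 in the *NestinCre* line at E13.5 (medians -0.28 and -0.18, most abundant *Col3a1*), and those of endothelium and pericytes for 13 of 15 and 14 of 15 (medians -0.24 and -0.15, most abundant *Kdr*). Library A1 set these values in the *Sox1Cre* line. Without it the choroid plexus median was 0.81, with 10 of 10 genes above 0 and 5 at an unadjusted *p* under 0.05, and the summed list averaged 81641 (SD 12405, n = 3 mutants) against 49386 (SD 20220, n = 4 controls). Meningeal genes were then below 0 for 8 of 13 (median -0.04), and those of endothelium and pericytes for 7 of 15 (median 0.02). In the *NestinCre* line without A19, endothelial and pericyte genes were below 0 for 8 of 15 (median -0.00) and meningeal genes for 10 of 13 (median -0.06), and the 4 genes had log2 changes of -0.35 for *Arvcf*, -0.55 for *Aif1l*, -1.17 for *Plce1* and -0.21 for *Cnn3*. Without A18, the log2 changes of the 4 genes in this line were -0.37, -0.61, -1.13 and -0.21 in the same order. Without A10 at E12.5, endothelial and pericyte genes were above 0 for 15 of 15 (median 0.21), against 7 of 15 with it (median 0.00), and meningeal genes for 9 of 13 against 4 of 13. None of these genes passed the threshold, with or without A1, A10 and A19, nor did any of 12 microglial, 10 erythroid and 5 ventral telencephalic genes. Of the 80 genes of these lists and the neuronal list, 5, 4 and 1 had an unadjusted *p* under 0.05 in the 3 comparisons (limma). Over all 16454 genes tested, 2217, 1932 and 1064 had one. Neither edgeR nor DESeq2 called any of the 80. *Sp8*, which made up most of the summed ventral telencephalic list, was 916.6 to 1172 normalized counts in E13.5 *Sox1Cre* controls and 1252 to 1494 in mutants, without overlap, and did not pass (limma). In the other comparisons it overlapped, with 1267 to 2368 in controls and 747.3 to 2117 in mutants at E12.5, and 762.2 to 1288 and 917.4 to 2133 in the *NestinCre* line. Of the ventral list, 5 of 5 tested genes were above 0 in the *NestinCre* line (median 0.44), where mutant A18 had the highest sum (2871). *Sp8* was 2133 of this sum, against 982.5 of 1081 in A17, 1385 of 1438 in A19 and 917.4 of 965.7 in A20. The other genes of the list thus held more of the sum in A18 than in these libraries. The part of these cell types in the lower levels of the 4 genes was not tested; without library A1, the lowest for the choroid plexus, meninges and endothelium lists, the log2 changes in the *Sox1Cre* line were those given above.

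**Figure D5:**
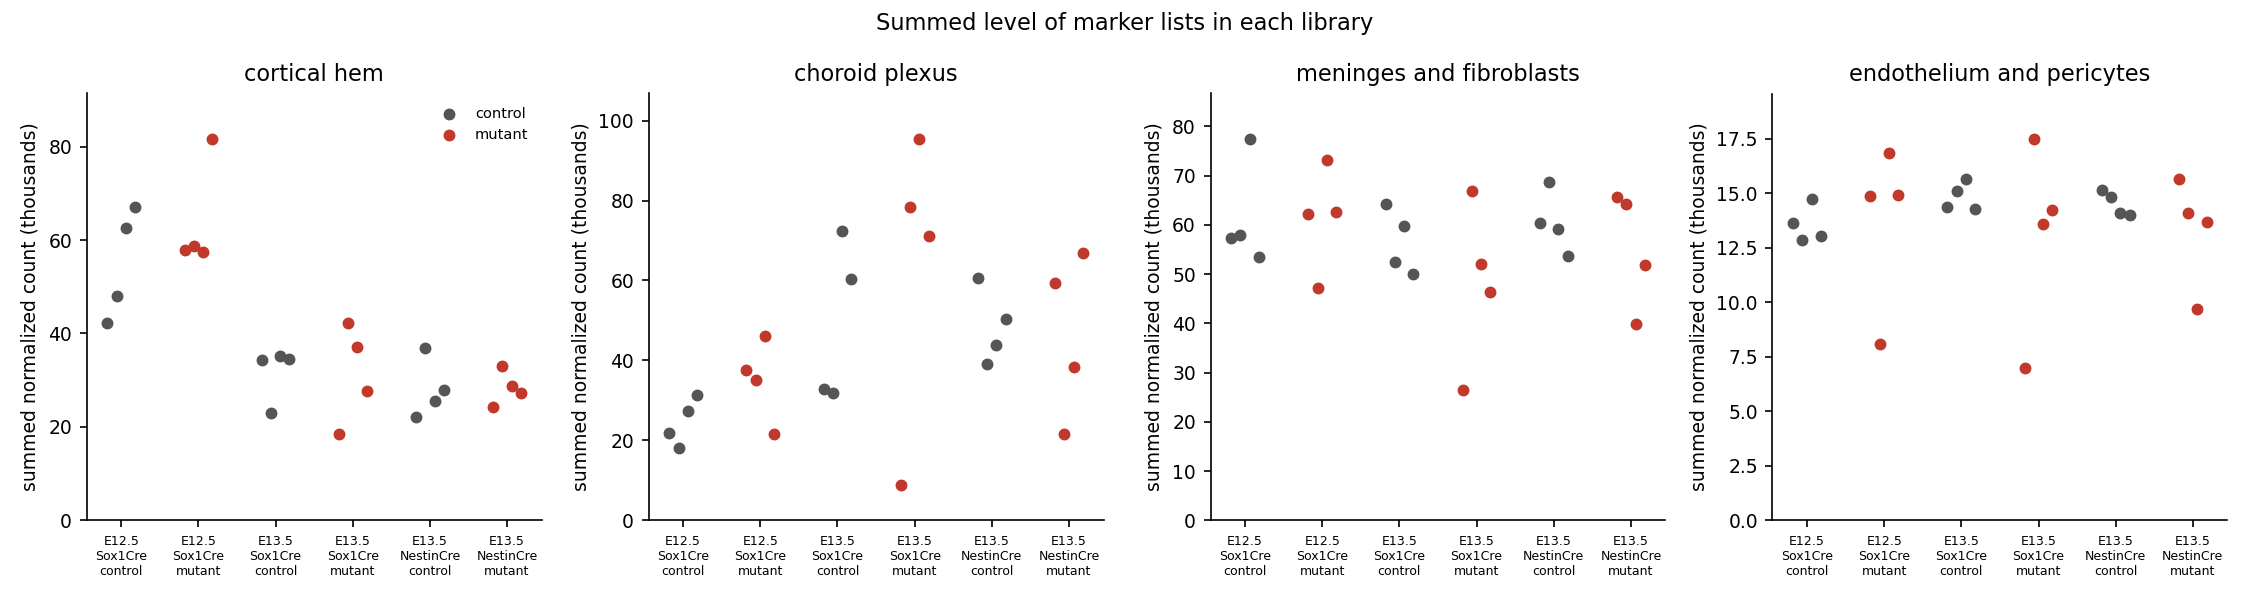
Summed normalized counts (axes from 0) of the marker lists of cortical hem, choroid plexus, meninges and fibroblasts, and endothelium and pericytes in the 24 libraries; each point is a library, gray for controls and red for mutants. Mutant A1 of the E13.5 *Sox1Cre* group is the lowest point of each panel (18503, 8823, 26591 and 7009), and in the cortical hem panel E12.5 libraries stand above those of E13.5.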

How the data were processed

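The authors trimmed reads with Trimmomatic 0.36, aligned them to GRCm38 with STAR 2.5.2a, estimated gene counts with RSEM 1.2.31 and normalized them with DESeq2, according to the methods and the submitters' processing notes. The deposited values are a signal per gene and library, on a linear scale, with no pooling of replicates and no log transformation. The values were whole multiples of 1 step per library, from which reads were recovered (100% whole within 1e-06); in A3 the step is 0.994, which leaves less room for this check. No column of another sample was present. The library protocol is an mRNA kit, and the strand setting of the counting is not given in the sources used here.

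GENCODE M21 (GRCm38) named 51719 of 51912 genes, and no row lacked a gene. The 16454 genes that reached 10 in 4 or more libraries were tested. The model was limma's (version 3.58.1, R 4.3.3), on log2(value + 1) of the 24 libraries with 1 mean per group (18 residual degrees of freedom, eBayes with a trend, two-sided, Benjamini-Hochberg over all genes, threshold 0.05). Fold changes on this scale understate changes of low genes. The fit was tested on simulated data for the E12.5 comparison (15612 genes, 200 changed): limma found 99% of changes of 1 on the log2 scale and 60% of those of 0.5, with 5.36% false calls. On the same data false calls were 5.88% with edgeR and 11% with DESeq2, and calls by DESeq2 alone are treated with more caution. The simulation was a single set, with a spread fixed by the mean level of a gene and no libraries that stand apart. These rates may therefore not hold for the real libraries. Within-group relations used 100000 permutations within groups. Alternatives were pseudocounts of 0.5 and 5, no filter, a mean of at least 100, quantile normalization, array weights, robust eBayes, fewer libraries, *Xist* as a covariate, edgeR 4.0.16 and DESeq2 1.42.0 on recovered reads, and leaving out each library. A fit with 1 *Xist* class was chosen after seeing the data.

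The genes named are the 4, *Sox9*, the other genes shared by both E13.5 comparisons, the 3 next outside the threshold, the 5 most alike, close paralogs, and list members or neighbors past the threshold; *Hras*, *Myh14*, *Dgcr2* and *Rbp4* were added after their values were seen, as were the most abundant list genes. Results for some genes are not reported here. The 17 lists hold 4 of pathways and 13 of cell types or sex; Ahsp was not found in the table, and the sex list (5 genes) had none past the threshold with limma. The members and lists were chosen with earlier results of these data known. Promoters are from RefSeq, in which all 4 genes matched. Summaries used Python 3.11.15, pandas 2.3.3 and scipy 1.17.1, with numpy 2.4.6, and plots matplotlib 3.10.9. Reads carry no molecular identifiers, so the value of 3 reads covers counting error only.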

Additional observations from a re-analysis of the deposited data

Results flagged for a closer look

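Each gene's highest and lowest library was checked in the 6 groups against Dixon's 95% limit for 4 values, for the 4 genes and *Sox9*, and 3 of 30 groups were past it, where chance gives about 1 in 20. *Plce1* was 320.3 normalized counts in mutant A1 at E13.5 in the *Sox1Cre* line, below the other mutants, and 509.3 in mutant A10 at E12.5. These libraries also had the lowest and second lowest endothelium and pericyte sums of the 24 (7009 and 8097), and the part of these cells in the *Plce1* values was not tested. *Arvcf* was 3832 in control A5 of the E13.5 *Sox1Cre* group, above the other controls.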

How the results depend on the processing

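No paired analysis was possible because the libraries of different groups share no replicate number in the labels. At E12.5 the direction was the same for all 4 genes under each alternative run. *Arvcf*, which missed the threshold, passed it with array weights (-0.25, adjusted *p* = 0.0153) and with DESeq2 (-0.24, adjusted *p* = 0.0173), and *Cnn3* lost its call after quantile normalization (-0.19, adjusted *p* = 0.0935); *Aif1l* kept its call and *Plce1* had none in all of them. The cause was not tested. The count of genes past the threshold at E12.5 (119) was 76 with the comparison's libraries alone, 60 with the 16 *Sox1Cre* libraries and 52 with 1 *Xist* class, which all use fewer libraries, 577 with array weights and 298 with DESeq2, against 106 with edgeR. Leaving out a library gave 50 (without A13) to 139 genes, with 68 without A14, 74 without A16 and 75 without A12, and log2 changes of -0.28 to -0.22 for *Arvcf*, -0.71 to -0.59 for *Aif1l*, -0.29 to -0.16 for *Plce1* and -0.27 to -0.23 for *Cnn3*, with no call changed. At E13.5 in the *Sox1Cre* line *Arvcf* was -0.42 with 1 *Xist* class and *Cnn3* -0.16 after quantile normalization, where it lost its call. The within-group r of *Sox9* and *Aif1l* turned to -0.0402 and that of *Aif1l* and *Cnn3* moved to -0.57 after quantile normalization. Depth did not limit the 4 genes, which were far above the value of 3 reads in each library; 4 libraries in a group limit the precision.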
